A study of Homo sapiens with 12 samples.

Results

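The comparison described here set H929 cells carrying a short hairpin RNA against BCL9 (shBCL9) against H929 cells carrying a control hairpin named for green fluorescent protein (shGFP). It used 6 of the 12 arrays of the series, 3 titled as control hairpin and 3 titled as BCL9 hairpin, and all genes with a probe set that names 1 gene. H929 is an established human multiple myeloma cell line, that is, a line of malignant plasma cells. In both groups the cells had been infected and the fluorescent, GFP-positive ones then collected by flow cytometry, no other treatment or allele is named, and the labels give neither the sequence nor the number of the hairpins, nor a time after infection. Total RNA was labelled with biotin from its 3' end and read on arrays of 54675 probe sets, and the values are log2 intensities. The 41097 probe sets with 1 gene symbol stand for 19775 genes, of which 14401 passed the filter on low values and were tested. Whether the 3 arrays of a group stand for separate cultures is not stated in the labels. The p-values therefore describe the spread among these 6 hybridisations, which may be technical, and their number limits the precision of every value.

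BCL9 is a co-activator that links beta-catenin to the transcription machinery in Wnt signalling, and its loss has been studied in myeloma for its part in growth and survival. Plasma cells secrete large amounts of antibody and depend on the unfolded protein response, which raises chaperones of the endoplasmic reticulum, and on the integrated stress response, in which the factor ATF4 raises genes for amino acid supply. Cells that carry foreign or double-stranded RNA can turn on interferon-stimulated genes, while heat, oxidants, metals, low oxygen and DNA damage each have their own sets of induced genes. The 12 stress lists below follow these responses.

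Array medians lay between 5.47 and 5.53, and arrays of the same group correlated more closely (r = 0.997 to 0.998 across probe sets) than arrays of different groups (0.989 to 0.992). BCL9, read by 1 probe set, measured 7.88, 7.90 and 7.88 in the shGFP arrays and 7.73, 7.61 and 7.85 in the shBCL9 arrays. Every shBCL9 array was below every shGFP array, but the difference of -0.15 ± 0.07 (SE) did not pass the threshold in limma (adjusted p = 0.105), and a two-sided exact permutation test gave p = 0.1, the minimum for groups of 3. With shBCL9 replicate 3 left out it was -0.21 and was called, and with the ACTB covariate described next it was 0.033 and was not. Some RNA quality and labelling controls moved with the groups. The 18S rRNA probe sets and both sets of spike-in controls, given at the end, did not overlap between the groups. The difference between the 3' and the 5' probe set of ACTB, a measure of RNA integrity and labelling, was 1.30 ± 0.11 (SD, n = 3) in shGFP and 1.67 ± 0.08 in shBCL9, while that of GAPDH was 0.14 and 0.13. The ACTB difference was added to the model as a covariate, an alternative chosen after the data were seen. Its values did not overlap between the groups (1.17 to 1.36 in shGFP, 1.59 to 1.75 in shBCL9). Such a fit cannot tell its part from that of the hairpin, and calls are also lost through lower precision. Its part in the results below was therefore not tested. With the covariate, the genes called fell from 2489 to 400 for those higher and from 3049 to 971 for those lower.

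Across the genome the change was broad and mostly small. With an adjusted p under 0.05 as the threshold, 38.5% of the genes tested were called, 2489 higher (17.3%) and 3049 lower (21.2%) in shBCL9, and the median difference of all genes was 0.03. The balance of directions turned with the scaling, with 2959 rises and 2704 falls once the arrays were quantile normalized again, and 1904 rises and 3292 falls once each was centred on its median. Among those that rose, 33.2% changed by less than 0.25 on the log2 scale and a further 52.0% by 0.25 to 0.5. Among those that fell the corresponding shares were 22.0% and 46.2%. Changes of 2-fold or more were rarer and leaned downwards, with 70 genes higher and 202 lower. The 3 arrays of shBCL9 did not overlap with those of shGFP in 52.3% of the genes, with 25.2% higher and 27.1% lower. In the table of all 26918 tested probe sets, 36.8% were called, 15.3% higher and 21.5% lower. Any count of called members in a list has to be read against these shares.

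**Figure D1:**
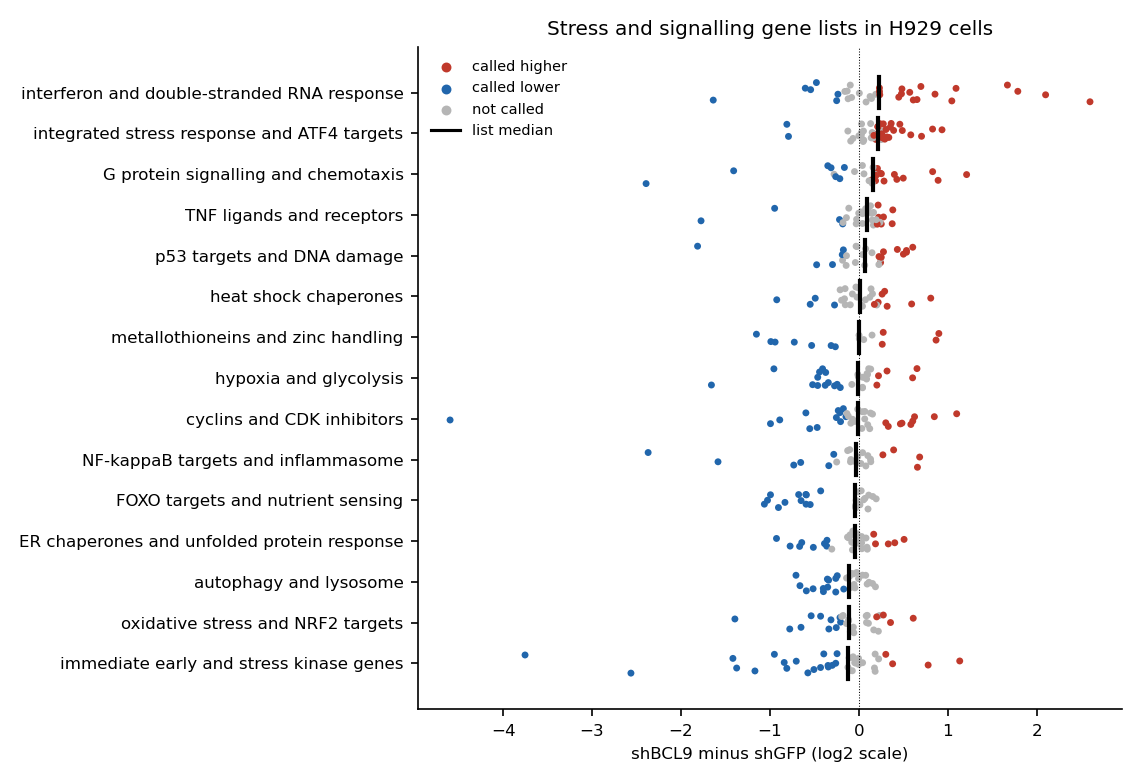
Log2 differences (shBCL9 minus shGFP, x axis) of the tested members of the 12 stress lists and 3 signalling lists, 1 point per gene at its brightest probe set, red where called higher, blue where called lower and grey where not called, with the median of each list as a black bar. The interferon list has the highest median (0.23) and the immediate early list the lowest (-0.12).

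Interferon-stimulated genes, which restrict viruses and other foreign RNA, contained some of the larger rises. Of the 34 tested members (of 42 listed), 17 rose and 6 fell, with a median of 0.23, and 7 changed by 2-fold or more. Calls made up 67.6% of the list, against 38.5% of all genes. MX1, a GTPase that traps viral nucleocapsids, read 7.47, 7.53 and 7.39 in the shGFP arrays and 9.26, 9.30 and 9.20 in the shBCL9 arrays. The groups were far apart, and MX1 rose by 1.79 ± 0.06 (SE, adjusted p = 1.67e-06). Its relative MX2 rose by 1.67 ± 0.11 (SE, adjusted p = 3.46e-05), and IFI27, an interferon-induced mitochondrial protein, by 2.60 ± 0.07 (SE, adjusted p = 9.19e-07). IFITM1, which blocks virus entry at the membrane, rose by 2.10. BST2, which tethers budding virus, rose by 1.05, and XAF1, ISG15 and IFIT3 by 0.86, 0.70 and 0.57 (these 4 were chosen after their values were seen).

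The response was not uniform. SAMD9, an antiviral gene that restricts poxviruses, read 8.56, 8.70 and 8.76 in the shGFP arrays and 6.94, 7.21 and 6.97 in the shBCL9 arrays and fell by 1.64 ± 0.09 (SE, adjusted p = 1.56e-05), with no overlap of the groups. Its neighbour in sequence and on the chromosome, SAMD9L, fell by 0.60 ± 0.08 (SE, adjusted p = 0.00097), and the exonuclease gene ISG20 by 0.54 ± 0.05 (SE, adjusted p = 0.000145). The sensor genes IFIH1 (0.19) and RIGI (-0.13) did not pass the test. OAS2, an activator of RNase L, showed how a call can hang on the probe set: its brightest probe set fell by 0.25, whereas the other 2 rose by 0.78 and 0.63. IFIH1, RIGI and OAS2 were also chosen after their values were seen. With the ACTB covariate 9 members of the list were called higher and 3 lower.

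The 3 interferon promoters with opposite outcomes are shown here because each holds the classic interferon-stimulated response motif, searched as GAAA, 2 free bases and GAAA again on both strands with overlaps allowed. They are RefSeq sequences of GRCh38.p14, 250 bases ending just before the annotated start, with every match to the motif in capitals: IFI27 at chr14:94110486-94110735 (plus strand), BST2 at chr19:17405631-17405880 (minus strand) and SAMD9 at chr7:93117980-93118229 (minus strand).
IFI27: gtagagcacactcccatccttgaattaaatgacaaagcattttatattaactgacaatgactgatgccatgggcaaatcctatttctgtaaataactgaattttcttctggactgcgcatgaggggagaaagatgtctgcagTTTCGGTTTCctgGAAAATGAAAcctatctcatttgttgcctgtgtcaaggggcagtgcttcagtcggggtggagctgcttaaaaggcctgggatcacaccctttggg
BST2: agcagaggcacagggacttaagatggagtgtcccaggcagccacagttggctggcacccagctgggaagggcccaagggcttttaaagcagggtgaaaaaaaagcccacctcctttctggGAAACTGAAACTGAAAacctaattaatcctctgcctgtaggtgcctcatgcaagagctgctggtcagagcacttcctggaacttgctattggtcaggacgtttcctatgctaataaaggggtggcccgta
SAMD9: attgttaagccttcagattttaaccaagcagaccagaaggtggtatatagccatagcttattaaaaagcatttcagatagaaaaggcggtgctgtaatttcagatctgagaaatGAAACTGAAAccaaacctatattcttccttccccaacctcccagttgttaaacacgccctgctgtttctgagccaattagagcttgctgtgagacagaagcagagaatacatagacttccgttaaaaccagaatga

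IFI27, which rose, holds 2 matches, BST2, which rose, holds 2 overlapping ones, and SAMD9, which fell, holds 1. In windows from 250 bases before to 50 after the start, the motif was present in 17 of the 26 list promoters found in the table (65.4%) and in 3.65% of all 27305 promoters. It was found in 11 of 14 members that rose, 3 of 4 that fell and 3 of 8 that were not called. A match describes the letters only and does not show that a factor was bound.

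Genes of the integrated stress response rose more often than they fell, by small amounts. All 45 tested members (of 48 listed) lay above the filter level in all 6 arrays. Of these, 24 rose and 2 fell, with a median of 0.21. In this list 57.8% were called, against 38.5% of all genes. ATF3, a stress-induced transcription factor, read 6.67, 6.44 and 6.61 in the shGFP arrays and 7.51, 7.54 and 7.46 in the shBCL9 arrays. The groups were separate and ATF3 rose by 0.94 ± 0.07 (SE, adjusted p = 6.49e-05). DDIT3, which encodes the pro-apoptotic factor CHOP, read 7.82, 7.59 and 7.88 in the shGFP arrays and 8.44, 8.50 and 8.46 in the shBCL9 arrays and rose by 0.71 ± 0.08 (SE, adjusted p = 0.000454). SLC7A11, the cystine importer, rose by 0.83 ± 0.08 (SE, adjusted p = 0.000179), and its partner SLC3A2 by 0.39.

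Among its metabolic enzymes, CBS, of cysteine synthesis, rose by 0.58 and PCK2, the mitochondrial phosphoenolpyruvate carboxykinase, by 0.49. PYCR1, of proline synthesis, rose by 0.35, PSPH and PSAT1, of serine synthesis, by 0.34 and 0.27, and SHMT2, of one-carbon metabolism, by 0.26. PHGDH, which starts serine synthesis, and the one-carbon enzyme MTHFD2 differed by 0.16 and -0.07 and were not called. Of the 11 tested transfer RNA synthetase genes of the list, WARS1, AARS1, EPRS1 and SARS1 rose by 0.24, 0.23, 0.22 and 0.17. The other 7 were not called, with TARS1 at 0.15, GARS1 at 0.13, YARS1 and NARS1 at 0.05, IARS1 and CARS1 at 0.03 and LARS1 at -0.12. ATF4 itself rose by only 0.19 ± 0.05 (SE, adjusted p = 0.0135), and its feedback genes CHAC1 and TRIB3 by 0.31 and 0.17. ASNS, asparagine synthetase and a standard ATF4 target, measured 11.65, 11.59 and 11.64 in the shGFP arrays and 11.61, 11.60 and 11.67 in the shBCL9 arrays, with overlapping groups and a difference of 0.00 (adjusted p = 0.993). SESN2 (0.16) was likewise not called. The 2 members that fell were DDIT4, an inhibitor of mTORC1, by 0.81 ± 0.06 (SE, adjusted p = 5.83e-05), and the lipoprotein receptor gene VLDLR by 0.79 ± 0.08 (SE, adjusted p = 0.000354). With the ACTB covariate 3 members were called higher and 2 lower, and calls as small as those of CHAC1, TRIB3, SARS1 and STC2 were lost in 4 of the 6 fits that left out 1 array.

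Both ATF3, which rose most in the list, and ASNS, which did not pass the test, hold the C/EBP-ATF element, searched as TGATGNAA on both strands and printed in capitals. The 250 bases before the start of ATF3 (chr1:212565157-212565406 (plus strand)) and ASNS (chr7:97872409-97872658 (minus strand)) read as follows in the RefSeq table of GRCh38.p14.
ATF3: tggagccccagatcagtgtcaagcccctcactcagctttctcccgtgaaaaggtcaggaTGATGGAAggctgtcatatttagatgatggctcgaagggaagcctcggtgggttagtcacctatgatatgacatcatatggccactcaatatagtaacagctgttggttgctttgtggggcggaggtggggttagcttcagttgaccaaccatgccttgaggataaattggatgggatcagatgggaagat
ASNS: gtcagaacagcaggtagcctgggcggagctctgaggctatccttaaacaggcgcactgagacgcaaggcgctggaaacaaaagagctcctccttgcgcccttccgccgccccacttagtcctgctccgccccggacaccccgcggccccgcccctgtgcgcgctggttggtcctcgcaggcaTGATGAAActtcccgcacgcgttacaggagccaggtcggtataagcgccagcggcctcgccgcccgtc

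The element occurred in 10 of 37 list promoters (27.0%) and in 3.67% of all promoters over the same window. Among members it was present in 4 of 19 that rose, 0 of 2 that fell and 6 of 16 that were not called.

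**Figure D2:**
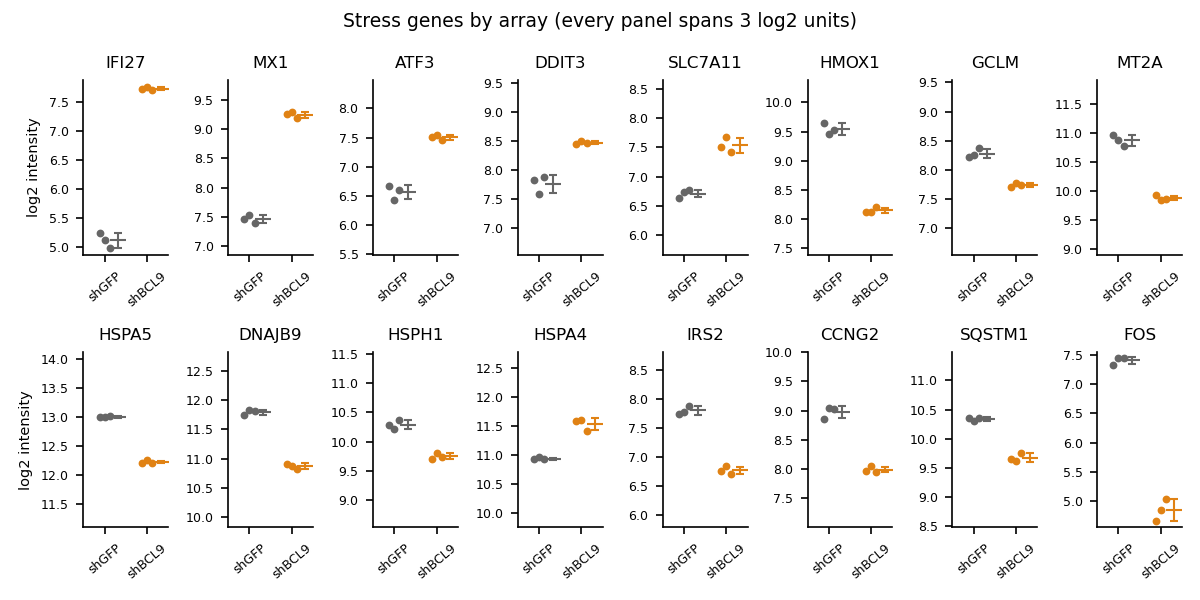
Log2 intensities of 16 stress genes at their brightest probe sets, 1 point per array (grey for shGFP, orange for shBCL9), with the mean and SD of each group beside the points and panels of equal height. IFI27, MX1, ATF3, DDIT3, SLC7A11 and HSPA4 are higher in all 3 shBCL9 arrays, and the other 10 genes are lower in all 3.

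Chaperones of the endoplasmic reticulum moved in both directions. Of 33 tested members (of 34 listed), 5 rose and 8 fell, with a median of -0.05, and the share called (39.4%) was near the 38.5% of all genes. HSPA5, the main chaperone of the compartment (also known as BiP), was among the brightest probe sets and read 12.99, 12.99 and 13.01 in the shGFP arrays and 12.21, 12.25 and 12.21 in the shBCL9 arrays. Within each group the 3 arrays lay close together, and HSPA5 fell by 0.77 ± 0.05 (SE, adjusted p = 2.19e-05), or 1.71-fold. DNAJB9, a co-chaperone of HSPA5, fell by 0.93 ± 0.05 (SE, adjusted p = 1.67e-05), and DERL3, a factor in the removal of misfolded proteins, by 0.64 ± 0.06 (SE, adjusted p = 0.000135). All other probe sets of these 3 genes had the same sign. In the opposite direction, SDF2L1, another HSPA5 partner, rose by 0.51 ± 0.06 (SE, adjusted p = 0.000465), the disulfide isomerase PDIA3 by 0.40 ± 0.05 (SE, adjusted p = 0.000682) and SEL1L by 0.33 ± 0.05 (SE, adjusted p = 0.00128). The other 2 probe sets of PDIA3 had the opposite sign, and the mean of its probe sets was 0.06. HSP90B1 (-0.07), CALR (0.10) and XBP1 (0.09), chosen after their values were seen, did not pass the test. The rises numbered 3 without shBCL9 replicate 1 or shGFP replicate 2, and 0 with the ACTB covariate, against 4 falls.

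The HSPA5 promoter is given because its gene fell and it carries the ER stress element, searched as CCAAT and CCACG with 9 free bases between them on both strands. The 250 bases before its start, at chr9:125241344-125241593 (minus strand) of GRCh38.p14, hold 1 match, in capitals.
HSPA5: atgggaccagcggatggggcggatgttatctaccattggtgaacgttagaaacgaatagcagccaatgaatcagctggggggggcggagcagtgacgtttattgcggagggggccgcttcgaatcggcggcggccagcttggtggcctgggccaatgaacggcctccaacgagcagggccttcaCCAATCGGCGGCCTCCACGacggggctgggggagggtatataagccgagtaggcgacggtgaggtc

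The element was found in 7 of 30 list promoters (23.3%), against 0.0806% of all promoters. The 7 comprised 3 of 7 members that fell, 0 of 4 that rose and 4 of 19 that were not called.

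Heat shock chaperones of the cytosol and mitochondria also moved in both directions. Among 28 tested members (of 33 listed), 7 rose and 4 fell, with a median of 0.01, and the share called (39.3%) was again near that of all genes. HSPB1, a small heat shock protein that holds unfolding clients, rose by 0.81 ± 0.10 (SE, adjusted p = 0.00058), and HSPA4, a nucleotide exchange factor for HSP70, by 0.59 ± 0.06 (SE, adjusted p = 0.000349). With plain probe sets only, HSPA4 differed by 0.05 and was not called. BAG3, TRAP1 and PTGES3 rose by 0.32, 0.26 and 0.17. HSPH1, which has the same biochemical role as HSPA4, read 10.29, 10.22 and 10.37 in the shGFP arrays and 9.70, 9.80 and 9.74 in the shBCL9 arrays and fell by 0.55 ± 0.06 (SE, adjusted p = 0.000352). The co-chaperone gene DNAJA1 fell by 0.49 ± 0.06 (SE, adjusted p = 0.000508) and HSPA2 by 0.92 ± 0.13 (SE, adjusted p = 0.00154). DNAJB1 (-0.15), HSP90AA1 (-0.15), HSPD1 (-0.00) and HSPE1 (-0.07), which respond to heat through HSF1, were not called. HSPA1A, HSPA1B and HSPA8 had no probe set with 1 symbol that passed the filter and are without a value. Without shGFP replicate 2 the rises numbered 4, and with each array centred on its median the falls numbered 7. The ACTB covariate left 1 rise and 2 falls.

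Antioxidant genes driven by NRF2 leaned downwards. Of 29 tested members (of 32 listed), 4 rose and 10 fell, with a median of -0.11. The share called was 48.3%, against 38.5% of all genes. HMOX1, which degrades haem, read 9.65, 9.46 and 9.52 in the shGFP arrays and 8.13, 8.12 and 8.20 in the shBCL9 arrays. Every shBCL9 array was more than 1 log2 unit below every shGFP array, and HMOX1 fell by 1.39 ± 0.06 (SE, adjusted p = 7.27e-06), or 2.63-fold. Malic enzyme ME1 fell by 0.78 ± 0.05 (SE, adjusted p = 2.97e-05), and GCLM, the modifier subunit of the enzyme that starts glutathione synthesis, by 0.54 ± 0.06 (SE, adjusted p = 0.000354). TKT, of the pentose phosphate pathway, rose by 0.61 ± 0.06 (SE, adjusted p = 0.000226), GPX1 by 0.36 and PRDX6 by 0.28. SLC7A11, which rose, is shared between the NRF2 and ATF4 programmes and was counted with the ATF4 list. With the ACTB covariate 1 member was called higher and 4 lower.

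Metallothioneins, small cysteine-rich proteins that bind zinc and copper, moved in both directions. In a list of 15 tested members (of 17), 4 rose and 7 fell, and the median was 0.00 and the mean -0.16. This put 73.3% of the members among the calls, against 38.5% of all genes. MT2A read 10.96, 10.87 and 10.78 in the shGFP arrays and 9.92, 9.84 and 9.87 in the shBCL9 arrays. Its groups did not overlap and it fell by 0.99 ± 0.06 (SE, adjusted p = 2.66e-05). MT1X fell by 0.94 ± 0.05 (SE, adjusted p = 1.46e-05), MT1H by 0.73 ± 0.06 (SE, adjusted p = 8.86e-05) and MT1F by 0.31 ± 0.07 (SE, adjusted p = 0.0105), and MTF1, the zinc-sensing factor that drives them, by 0.53 ± 0.09 (SE, adjusted p = 0.0026). MT1E went the other way, up by 0.87 ± 0.09 (SE, adjusted p = 0.000354), but its other probe set had the opposite sign. The metallothionein genes are close copies, so their probe sets may read one another's RNA. Among zinc transporters, SLC30A4, which moves zinc out of the cytosol, fell by 1.15 ± 0.06 (SE, adjusted p = 1.11e-05), and the importer gene SLC39A10 rose by 0.90 ± 0.05 (SE, adjusted p = 1.47e-05). The list had 1 rise and 3 falls with the ACTB covariate, and 3 falls with plain probe sets only.

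The MT2A promoter is shown with its metal response elements, searched as TGCNCNC on both strands, in capitals. It lies at chr16:56608334-56608583 (plus strand) of GRCh38.p14, and 7 matches fall within these 250 bases.
MT2A: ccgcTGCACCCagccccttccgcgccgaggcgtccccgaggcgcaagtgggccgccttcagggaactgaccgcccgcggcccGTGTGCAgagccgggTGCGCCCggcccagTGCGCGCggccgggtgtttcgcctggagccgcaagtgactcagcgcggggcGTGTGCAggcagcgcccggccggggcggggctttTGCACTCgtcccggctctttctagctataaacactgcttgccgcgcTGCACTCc

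With the 50 bases after the start MT2A holds 8 matches, as does MT1H, while MT1X holds 4. The 7-letter motif is common, with 55.2% of all promoters holding at least 1, and the share in the list was near it, 6 of 11 (54.5%). Those 6 comprised 5 of 6 members that fell, 1 of 2 that rose and 0 of 3 that were not called. Counts as high as 8 were found in 0.0879% of promoters and 4 or more in 2.78%. MT2A, MT1H and MT1X all fell, but they are near copies and were picked out after their values were seen.

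Immediate early genes, which switch on within minutes of a growth or stress signal, fell more often than they rose. Of 37 tested members (of 43 listed), 4 rose and 18 fell, with a median of -0.12 and 6 changes of 2-fold or more. As a share, 59.5% were called, against 38.5% of all genes. FOS, a subunit of AP-1, read 7.34, 7.45 and 7.44 in the shGFP arrays and 4.65, 4.85 and 5.04 in the shBCL9 arrays. In shBCL9 its level came down to that of the filter, and it fell by 2.56 ± 0.10 (SE, adjusted p = 2.93e-06). KLF2, a factor of lymphocyte quiescence, fell by 1.42 ± 0.05 (SE, adjusted p = 2.82e-06), but by 0.19 and without a call with plain probe sets only. The RNA decay factor ZFP36L1 fell by 3.75. JUN (-1.17), RHOB (-1.37), DUSP1 (-0.95), EGR1 (-0.84) and KLF10 (-0.81) also fell, and were chosen after their values were seen. The rises were SPRY2 and DUSP4, which restrain ERK signalling, by 1.13 ± 0.11 (SE, adjusted p = 0.000277) and 0.78 ± 0.05 (SE, adjusted p = 3.46e-05), the factor KLF6 by 0.38, and DUSP14 (also chosen afterwards) by 0.30. All shGFP arrays of SPRY2 and all shBCL9 arrays of ZFP36L1 lay below the filter level, so each passed the filter only through its higher group. With the ACTB covariate 9 members were called lower and 1 higher.

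DUSP1, a phosphatase that turns off stress kinases, is one of 3 list members with a full cyclic AMP response element, TGACGTCA, which reads the same on both strands. Its promoter (the 250 bases before the start at chr5:172771196-172771445 (minus strand), GRCh38.p14) carries it once, in capitals.
DUSP1: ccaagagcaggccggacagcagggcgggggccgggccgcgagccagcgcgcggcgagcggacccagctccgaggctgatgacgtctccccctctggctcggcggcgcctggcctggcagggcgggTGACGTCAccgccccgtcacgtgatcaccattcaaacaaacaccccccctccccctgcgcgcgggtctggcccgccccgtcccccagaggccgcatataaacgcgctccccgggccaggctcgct

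The other two are JUND and MAFF. All 3 fell, and they made up 3 of the 15 members that fell with a promoter in the table, against 0 of 3 that rose and 0 of 12 that were not called, and 1.98% of all promoters.

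In both nutrient-linked lists the called members moved in 1 direction. Among FOXO targets, which rise when insulin and growth factor signalling is low, 12 of 25 tested members (of 26 listed) fell and 0 rose, with a median of -0.04. IRS2, an adaptor of the insulin receptor, read 7.75, 7.77 and 7.88 in the shGFP arrays and 6.76, 6.85 and 6.72 in the shBCL9 arrays and fell by 1.03 ± 0.06 (SE, adjusted p = 2.08e-05). CCNG2 fell by 0.99 ± 0.06 (SE, adjusted p = 3.47e-05), at all 5 of its probe sets, and ARRDC3 by 1.06 ± 0.08 (SE, adjusted p = 9.29e-05). SESN3, TSC22D3, KLF9, IGF1R and CDKN1B, chosen after their values were seen, differed by -0.90, -0.83, -0.68, -0.65 and -0.60, all called. Among autophagy and lysosome genes, 13 of 29 tested members (of 30 listed) fell and 0 rose, with a median of -0.11. SQSTM1, the cargo receptor p62, read 10.35, 10.30 and 10.35 in the shGFP arrays and 9.65, 9.61 and 9.76 in the shBCL9 arrays and fell by 0.66 ± 0.06 (SE, adjusted p = 0.000118). MAP1LC3B, a membrane component of autophagosomes, fell by 0.59 ± 0.05 (SE, adjusted p = 0.000145), and the protease CTSL by 0.71 ± 0.07 (SE, adjusted p = 0.000244). At an unadjusted p under 0.05 the counts of higher members were 1 and 1, and after a further quantile normalization 2 members of each list were called higher. In each list 1 member was called higher in some fits that left out an array, without shGFP replicate 1 for FOXO targets and without shBCL9 replicate 3 or shGFP replicate 3 for autophagy genes. With the ACTB covariate 7 FOXO targets and 3 autophagy genes were called lower.

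Targets of p53 gave 9 rises and 5 falls among 26 tested members (of 30 listed), with a median of 0.07. Calls thus made up 53.8% of this list, against 38.5% of all genes. CDKN1A, the cell cycle inhibitor p21, rose by 0.61 ± 0.05 (SE, adjusted p = 0.000127), DDB2, which recognises damaged DNA, by 0.54 ± 0.05 (SE, adjusted p = 0.000256), and TP53I3 by 0.50 ± 0.10 (SE, adjusted p = 0.00707). TP53INP1, a stress-induced cofactor, fell by 1.81 ± 0.06 (SE, adjusted p = 2.58e-06) at its brightest probe set, and its other probe set had the opposite sign. ZMAT3 fell by 0.47 and the translesion polymerase POLH by 0.30. With plain probe sets only, 4 members were called higher, and with the ACTB covariate 1 was called higher and 2 lower. The falls numbered 3 without shBCL9 replicate 1, shBCL9 replicate 2 or shGFP replicate 1, and 2 without shGFP replicate 2. MDM2 (-0.03), the p53 ligase chosen after its value was seen, did not pass the test.

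Hypoxia and glycolysis genes gave 5 rises and 13 falls among 30 tested members (of 32 listed), with a median of -0.01. The 2 oxygen-regulated subunits moved apart. HIF1A rose by 0.61 ± 0.05 (SE, adjusted p = 0.000122), and EPAS1, which encodes HIF-2 alpha, read 6.79, 6.77 and 6.77 in the shGFP arrays and 5.78, 5.84 and 5.84 in the shBCL9 arrays and fell by 0.95 ± 0.05 (SE, adjusted p = 1.05e-05). The glycolytic enzyme ENO2 fell by 1.66 ± 0.10 (SE, adjusted p = 2.25e-05) and the collagen hydroxylase P4HA1 by 0.46 ± 0.05 (SE, adjusted p = 0.000354), while ADM, a vasodilator peptide, rose by 0.65 ± 0.10 (SE, adjusted p = 0.00178). All shGFP arrays of ADM lay below the filter level, so it passed the filter only through shBCL9. GAPDH rose by 0.20. Without shBCL9 replicate 1 or shGFP replicate 2 the rises numbered 2, and without shBCL9 replicate 2, shBCL9 replicate 3 or shGFP replicate 1 they numbered 3. Plain probe sets only gave 8 falls, and the ACTB covariate 0 rises and 5 falls.

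NF-kappaB targets and inflammasome genes gave 4 rises and 6 falls among 23 tested members (of 32 listed), with a median of -0.03. These calls made up 43.5% of the members, against 38.5% of all genes. The fall of AIM2, a sensor of cytosolic DNA, was among the larger ones of the whole comparison, with 10.24, 10.32 and 10.35 in the shGFP arrays and 7.90, 8.01 and 7.90 in the shBCL9 arrays and a difference of -2.37 ± 0.06 (SE, adjusted p = 5.23e-07). The chemokine CCL4 fell by 1.58 ± 0.07 (SE, adjusted p = 7.27e-06) and the subunit REL by 0.65 ± 0.06 (SE, adjusted p = 0.00013), with 1 of 3 other REL probe sets of opposite sign. ICAM1, an adhesion receptor, rose by 0.68 ± 0.05 (SE, adjusted p = 6.84e-05), the protease CASP1 by 0.66 ± 0.08 (SE, adjusted p = 0.000563) and the cytokine subunit EBI3 by 0.39. EBI3 lay below the filter level in all shGFP arrays and passed the filter only through shBCL9. Neither AIM2 nor CCL4 has another tested probe set. The list had 2 rises without shBCL9 replicate 1 or shBCL9 replicate 2, 1 with plain probe sets only, and 2 rises and 3 falls with the ACTB covariate.

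Among the 3 signalling lists, G protein signalling and chemotaxis had the largest share called, 71.4% against 38.5% of all genes. It had 13 rises and 7 falls among 28 tested members (of 41 listed), with a median of 0.16. The inhibitory subunit GNAI1 rose by 1.21 ± 0.10 (SE, adjusted p = 0.000109), the plasma cell chemokine receptor CCR10 by 0.89 ± 0.05 (SE, adjusted p = 1.25e-05) and the phosphodiesterase PDE4D by 0.83 ± 0.07 (SE, adjusted p = 0.000121), with 2 of 4 other PDE4D probe sets of opposite sign. RGS1 and RGS3, which shut off G alpha subunits, fell by 2.39 ± 0.14 (SE, adjusted p = 1.92e-05) and by 1.41 ± 0.09 (SE, adjusted p = 2.59e-05), and the receptor GPR15 by 0.35. The count of rises was 7 without shBCL9 replicate 2, shGFP replicate 2 or shGFP replicate 3, 7 with each array centred on its median, and 8 with plain probe sets only or the replicate block. The ACTB covariate left 2 rises and 2 falls.

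TNF ligands and receptors gave 7 rises and 4 falls among 30 tested members (of 35 listed), with a median of 0.09 and a mean of -0.00. Its share called, 36.7%, was near the 38.5% of all genes. The falls were the larger changes: TNFRSF10D, a decoy receptor for the death ligand TRAIL, read 6.86, 6.97 and 7.22 in the shGFP arrays and 5.15, 5.38 and 5.19 in the shBCL9 arrays and fell by 1.77 ± 0.10 (SE, adjusted p = 1.98e-05), and TNFSF10, TRAIL itself, fell by 0.95 ± 0.16 (SE, adjusted p = 0.00316). TNFSF10 lay below the filter level in all shBCL9 arrays and passed the filter only through shGFP. The death receptor TNFRSF10B rose by 0.25 ± 0.06 (SE, adjusted p = 0.0137). TNFSF14 and TNFRSF19 rose by 0.38 and 0.21, and TNFRSF17, the plasma cell receptor BCMA, fell by 0.18. The list had 3 rises without shBCL9 replicate 1 or replicate 2 and 4 without shGFP replicate 2 or replicate 3, and its falls numbered 2 without shGFP replicate 2. The ACTB covariate left 0 rises and 1 fall.

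Cyclins and inhibitors of cyclin-dependent kinases gave 9 rises and 12 falls among 35 tested members (of 37 listed), with a median of -0.01. The D-type cyclins went apart: CCND2 gave the largest fall of the comparison, by 4.60, while CCND1 read 7.76, 7.93 and 7.84 in the shGFP arrays and 8.88, 8.97 and 8.99 in the shBCL9 arrays and rose by 1.10 ± 0.06 (SE, adjusted p = 1.74e-05), with the same size at its 2 probe sets. The kinase gene CDK14 fell by 0.89 ± 0.09 (SE, adjusted p = 0.000334) and the phosphatase CDKN3 rose by 0.49 ± 0.05 (SE, adjusted p = 0.00028). CDKN1A and CDKN1B, given above, moved in opposite directions. The list had 5 rises with plain probe sets only, and 2 rises and 3 falls with the ACTB covariate.

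The plasma cell markers that identify H929 were present, with 13 of 14 listed members passing the filter; 3 rose and 3 fell. SDC1 (CD138), CD38 and SLAMF7 rose by 0.88 ± 0.06 (SE, adjusted p = 4.07e-05), 0.71 ± 0.05 (SE, adjusted p = 8.11e-05) and 0.60 ± 0.05 (SE, adjusted p = 7.68e-05). FGFR3, which is activated by the chromosome translocation of this line, fell by 0.80 ± 0.06 (SE, adjusted p = 5.91e-05), PRDM1 by 0.22 and TNFRSF17 by 0.18. Among markers of other cells, the summed signal of B cell markers was 9.38 to 9.56 on the log2 scale in shGFP and 9.18 to 9.32 in shBCL9, with CD22 higher and BACH2 lower among 7 tested of 12. For T and NK cell markers it was 9.17 to 9.30 and 8.88 to 9.01, with GZMB (-1.34), PRF1 (-0.63) and GNLY (-0.44) lower among 7 tested of 12. For stromal, epithelial and packaging cell markers it was 13.88 to 13.90 and 13.82 to 13.87, with KRT18 (0.50) higher and PECAM1 (-0.38) lower among 7 tested of 12. Myeloid markers (2 tested of 10) and erythroid and platelet markers (6 tested of 10) had 0 members called in limma, and 0 and 1 at an unadjusted p under 0.05. MS4A1, CD3G, CD8A, CD14, LYZ and EPCAM did not pass the filter. In bulk RNA, fewer cells of a kind and less RNA per cell cannot be told apart, and the part of these markers in the results was not tested.

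Beyond the 10 largest changes, which ran from 2.10 to 3.27 upwards and from -2.71 to -4.60 downwards, the next 15 rises lay between 1.63 and 2.09. ANKDD1A, an ankyrin repeat gene, read 6.35, 6.28 and 6.51 in the shGFP arrays and 8.44, 8.59 and 8.39 in the shBCL9 arrays and rose by 2.09 ± 0.08 (SE, adjusted p = 3.26e-06), and its second probe set had the same sign. Cytoskeletal genes were among the 15: ENAH, an actin elongation factor, rose by 1.87 ± 0.10 (SE, adjusted p = 1.35e-05), PLS3, an actin bundler, by 1.67 ± 0.06 (SE, adjusted p = 3.1e-06), MAP1B, which binds microtubules, by 1.66 ± 0.07 (SE, adjusted p = 4.31e-06), and CYFIP1, a subunit of the WAVE complex, by 1.63 ± 0.05 (SE, adjusted p = 1.13e-06). The stress kinase MAPK13 (p38 delta) read 6.09, 5.97 and 5.33 in the shGFP arrays and 7.71, 7.72 and 7.80 in the shBCL9 arrays, with the widest spread of the 15 in shGFP, and rose by 1.94 ± 0.18 (SE, adjusted p = 0.000179). MB, which encodes the oxygen store myoglobin, was bright in both groups and rose from 10.02 to 11.69 in group means. MORC1, PPM1E, MTARC1, ARHGAP27, KHDC1L and PLAAT2 rose by 2.07, 1.95, 1.73, 1.69, 1.64 and 1.63, and MX1 and MX2 completed the set. All shGFP arrays of MORC1 lay below the filter level, so it passed the filter only through shBCL9.

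The falls of rank 11 to 25 lay between -2.14 and -2.62. IL10, an anti-inflammatory cytokine, read 6.32, 6.08 and 6.46 in the shGFP arrays and 3.99, 3.90 and 3.67 in the shBCL9 arrays and fell by 2.43 ± 0.11 (SE, adjusted p = 8.95e-06). FCRL2, an Fc receptor-like protein of B cells, read 10.69, 10.81 and 10.69 in the shGFP arrays and 8.37, 8.39 and 8.31 in the shBCL9 arrays and fell by 2.37 ± 0.06 (SE, adjusted p = 4.73e-07), with all 4 other probe sets of the same sign. AIM2 and RGS1 belong to the same 15, as does IL16, which fell by 2.19 ± 0.07 (SE, adjusted p = 1.67e-06). IL16 has 2 other probe sets, of which 1 had the opposite sign, and with plain probe sets only its difference was 0.07. ID1, an inhibitor of basic helix-loop-helix factors, fell from 11.42 to 9.28 in group means (adjusted p = 1.46e-06), and HEG1, a receptor of endothelial junctions, from 10.87 to 8.72 (adjusted p = 3.74e-07). The cancer-testis gene PAGE1, FOS, UNC13C, MAP9 and NUDT12 were called at -2.62, -2.56, -2.45, -2.36 and -2.31. All shBCL9 arrays of IL10, PAGE1, UNC13C and NUDT12 lay below the filter level, so these genes passed the filter only through shGFP. The non-coding genes SH3RF3-AS1, DTNB-AS1 and LOC613266 were called at -2.40, -2.33 and -2.33.

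**Figure D3:**
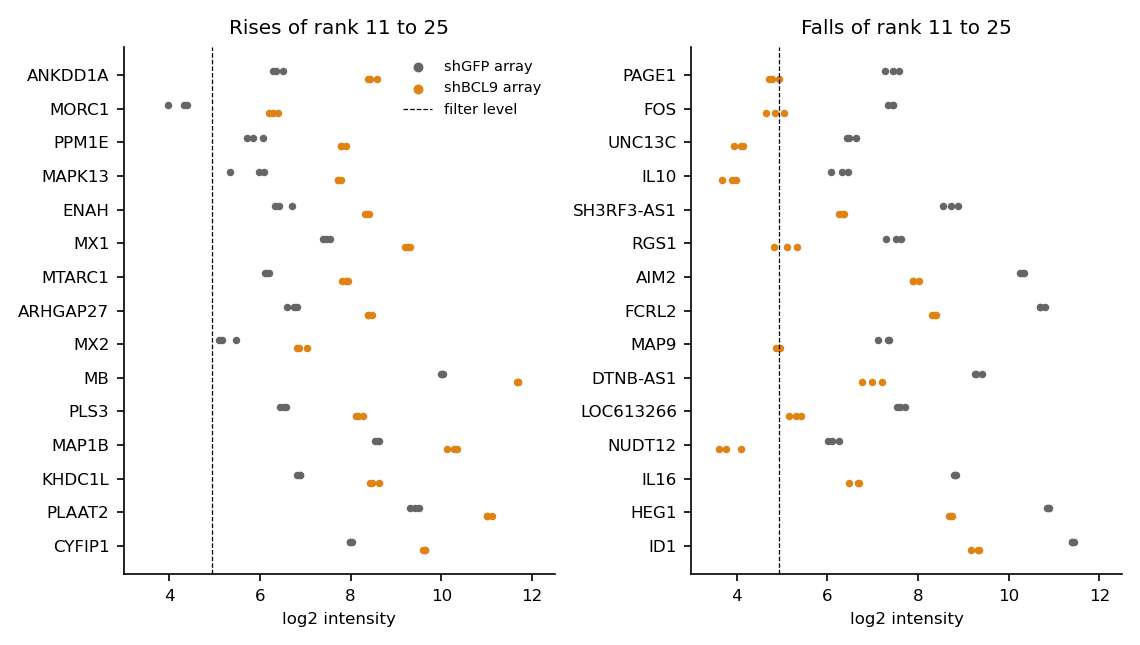
Log2 intensities of the genes ranked 11 to 25 by size of rise (left) and of fall (right), with 1 grey point per shGFP array and 1 orange point per shBCL9 array and the mean filter level (40th percentile of the arrays) as a dashed line. Only genes whose groups did not overlap were ranked, so all 30 genes are separate by selection. The shGFP arrays of MAPK13 spread from 5.33 to 6.09. MORC1 starts below the dashed line. PAGE1, FOS, UNC13C, IL10 and NUDT12 end below the line in their means, as does MAP9 narrowly (4.91), and RGS1 (5.09) ends just above it.

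How often a gene was called, and in which direction, depended on its level. With the genes split into 5 groups of equal size by mean log2 intensity, 24.3% were called in the dimmest, 35.6%, 47.5% and 46.6% in the next ones, and 38.3% in the brightest. Of those called, 63.7% were higher in the dimmest group, 34.9% in the middle one and 49.4% in the brightest. The median difference of all genes tested also varied with level, at 0.10, 0.08, -0.05, -0.04 and 0.01 from the dimmest group to the brightest. The part of this shift in the directions of the calls was not tested. The median SD within a group fell from 0.114 in the dimmest to 0.0424 in the brightest. Changes of 2-fold or more fell more often than they rose in every group, from 47 lower and 16 higher in the dimmest to 11 lower and 8 higher in the brightest.

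**Figure D4:**
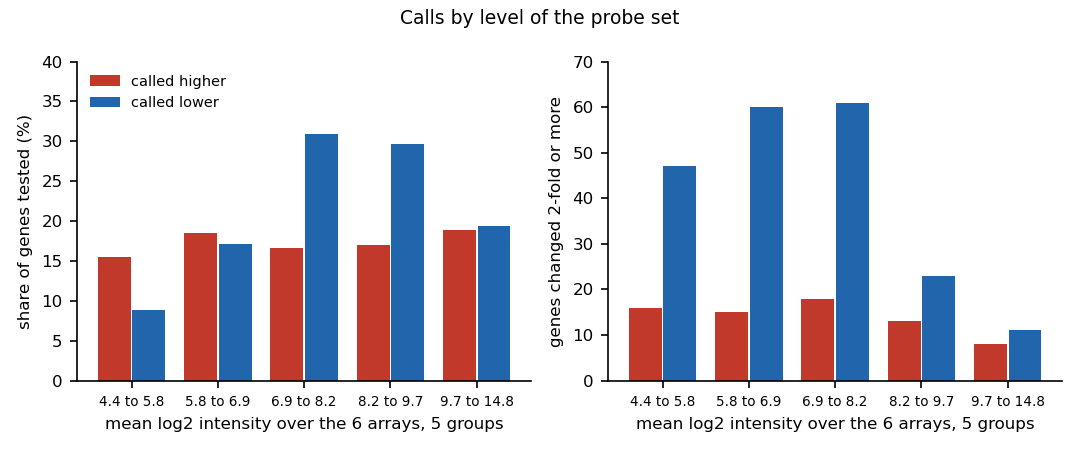
Share of tested genes called higher (red) or lower (blue) on the left, and number of called genes that changed 2-fold or more on the right, in 5 equal groups by mean log2 intensity over the 6 arrays (x axis). Calls are most frequent in the middle and the next brighter group (47.5% and 46.6% called), where lower calls outnumber higher ones, and changes of 2-fold or more are fewest in the brightest group.

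Some genes crossed the filter level, which was 4.88 to 4.95 on the log2 scale and is a working threshold for a detectable signal. In 98 genes all 3 shGFP arrays lay above it and all 3 shBCL9 arrays below, and 51 genes did the reverse (79 to 81 with 1 of the shGFP arrays left out). Of the 98, 93 were called and 38 changed by 2-fold or more, while of the 51, 49 were called and 8 changed by that much, so most crossings were smaller than 2-fold. The larger losses were TMEM132D-AS1 (-4.20), ZFP36L1, POPDC3, a membrane protein of muscle (-3.31), the cytokine receptor IL23R (-2.94), WNT5B and PAGE1. WNT5B, a non-canonical Wnt ligand, read 7.18, 7.13 and 7.16 in the shGFP arrays and 4.27, 4.39 and 4.22 in the shBCL9 arrays and fell by 2.86 ± 0.06 (SE, adjusted p = 2.77e-07). The larger gains were FBXL13, an F-box gene, at 2.40, MORC1, INHBE, GPM6B, the transcript FLJ32255 and SPRY2. INHBE, an inhibin subunit induced in cells under endoplasmic reticulum stress, read 4.61, 4.70 and 3.95 in the shGFP arrays and 5.87, 6.08 and 5.96 in the shBCL9 arrays and rose by 1.55 ± 0.18 (SE, adjusted p = 0.000583). The membrane glycoprotein GPM6B rose by 1.45 ± 0.09 (SE, adjusted p = 2.32e-05) and FLJ32255 by 1.39 ± 0.08 (SE, adjusted p = 1.9e-05). Values below the level have no reliable size, so a difference that ends there may understate the change. Genes that crossed the level passed the filter only through the group in which they were higher.

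Many genes are read by several probe sets, which are hybridised with the same RNA and are not replicates. There were 6993 genes with 2 or more tested probe sets. Where the brightest was called and changed by 2-fold or more, 151 of 166 other probe sets (91.0%, exact 95% interval 85.5 to 94.9) had the same sign, with 51 of 52 for rises and 100 of 114 for falls. The interval takes these probe sets as independent, but they come from 118 genes and the same arrays, so it may be too narrow. The share of equal sign fell with the size of the change, to 86.4% at 0.5 to 1, 79.7% at 0.25 to 0.5 and 75.0% under 0.25. It was 63.1% for genes that were not called. The other probe sets read a smaller change, with a median ratio of 0.65 to the brightest. Without the filter on low values, agreement at 2-fold or more was 81.5%.

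**Figure D5:**
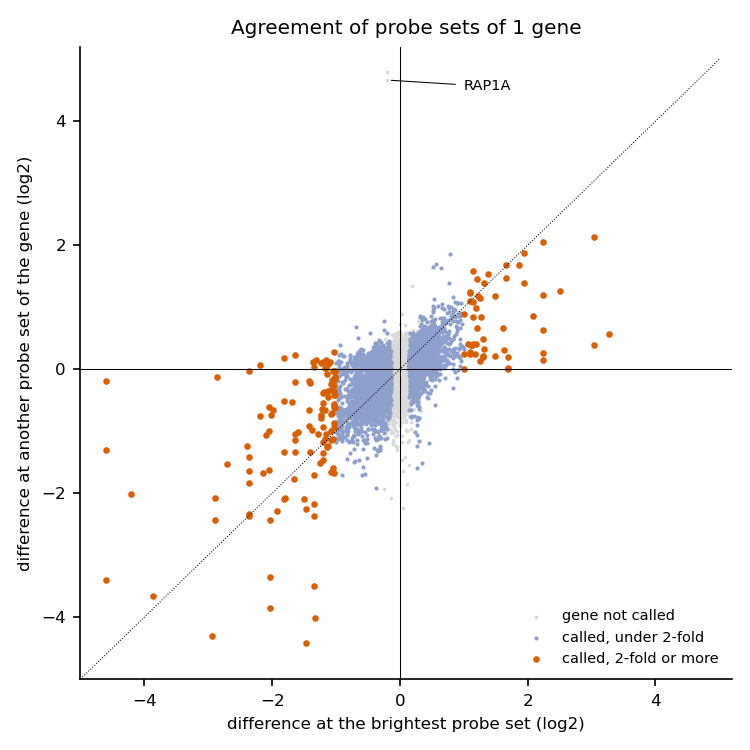
Log2 difference at each further probe set of a gene (y axis) against that at its brightest probe set (x axis), for genes not called (grey), called under 2-fold (blue) and called at 2-fold or more (orange), with the line of equality dotted. Of the orange points 151 of 166 lie in the quadrants of equal sign, and the 2 RAP1A probe sets that rose lie far from all others.

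All tested probe sets of a gene, at least 2, were called higher for 332 genes and lower for 646, and for 13 and 30 of these every probe set changed by 2-fold or more. The 13 rises were MAPK13, ENAH, MAP1B, PPM1E, FLJ32255, PRSS2, GNAI1, PPIC, CD300A, GANAB, CCND1, MYDGF and ABLIM1. Among the 30 falls were MACROD2 (-3.66 and -3.86), IL23R (-2.94 and -4.31), TRBC1 (-2.07 to -2.89), FCRL5 (-2.04 to -3.85), HEG1 (-1.68 and -2.15), PTPN22 (-1.66 and -1.77), TLR7 (-1.47 and -4.42) and SAMD9 (-1.34 and -1.64). Of the named genes in this paragraph, those outside the ranks and lists above were chosen after their values were seen. They include PTPN22, a phosphatase that restrains lymphocyte receptors, and TLR7, a receptor for single-stranded RNA.

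Probe sets of the same gene that were called in opposite directions were found for 251 of the 2088 genes with 2 or more called probe sets. In 5 of these both changes were at least 0.5, and in 0 were both at least 1. The widest gap belonged to RAP1A, a small GTPase of cell adhesion. Its probe set 1555339_at read 6.04, 6.13 and 6.41 in the shGFP arrays and 11.01, 10.98 and 10.97 in the shBCL9 arrays and rose by 4.79 ± 0.09 (SE, adjusted p = 1.47e-07), and 1555340_x_at rose by 4.67 ± 0.09 (SE, adjusted p = 1.47e-07). These were larger than the rise of any gene by its brightest probe set. Its brightest probe set, 202362_at, read 11.95, 12.07 and 12.15 in the shGFP arrays and 11.80, 11.83 and 11.94 in the shBCL9 arrays, with a difference of -0.20 that was not called, and 228548_at fell by 0.55 ± 0.09 (SE, adjusted p = 0.00249). RAP1A therefore appears among neither the rises nor the falls when a gene is represented by its brightest probe set. The probe sequences were not at hand, so what 1555339_at and 1555340_x_at read was not checked. Their rise may not be that of a RAP1A transcript.

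The next 5 gaps each combined a larger fall with a smaller rise. MBP, myelin basic protein, fell by 1.64 at 210136_at and rose by 0.23 at 207323_s_at, MIR146A, the host transcript of a microRNA, fell by 1.52 and rose by 0.35, and KLHL24 fell by 1.60 and rose by 0.26. QNG1 fell by 1.19 and rose by 0.46, and LPP fell by 1.16 and rose by 0.30. Others were even or leaned the other way: TAF15 rose by 0.68 and fell by 0.68, CTNNA1 rose by 0.62 and fell by 0.58, and HNRNPR rose by 0.73 and fell by 0.33. Counting any probe set in place of the brightest raised the genes changed by 2-fold or more from 272 to 376, with 18 of the added 104 higher and 86 lower. Besides those of RAP1A, 2 probe sets changed by 4-fold or more where the brightest did not reach 2-fold (chosen after their values were seen). PPOX, an enzyme of haem synthesis, read 9.32, 9.36 and 9.35 in the shGFP arrays and 7.09, 7.11 and 7.08 in the shBCL9 arrays at 238117_at and fell by 2.25 ± 0.05 (SE, adjusted p = 2.55e-07) there, with a difference of 0.04 at its brightest probe set. RHEX, a regulator of erythroid expansion, fell by 2.08 ± 0.09 (SE, adjusted p = 5.26e-06) at 222281_s_at and differed by -0.14 at its brightest.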

How the data were processed

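The deposited values are log2 intensities of 54675 probe sets per array. The authors made them with RMA in the affy package (background correction, normalization and a summary per probe set), according to the submitters' processing notes, where versions are missing. RMA equalises the arrays, so a shift common to all genes cannot be seen. Nothing was normalized further, and no pair of the 6 arrays shared more than 90 exactly equal values. The platform annotation named 41097 probe sets with 1 symbol and 1801 with several, and 11777 had none; 41043 of the first matched RefSeq genes of GRCh38.p14, and 0 symbols changed.

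The brightest probe set over the 6 arrays represented each gene, which was tested where this probe set exceeded the 40th percentile of the array in at least 3 arrays. A second table held all probe sets past that filter. Group means were compared with limma 3.58.1 in R 4.3.3 (lmFit, then eBayes), and a Benjamini-Hochberg adjusted p under 0.05 over all features of the table was a call. The pipeline was tested on simulated data. Plots were made in matplotlib 3.10.9 (Python 3.11.15). Promoters were searched in RefSeq windows of 250 bases before to 50 after each start.

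The genes, lists and rules were chosen with earlier results of these data known, so lists are described by counts and medians. Named were BCL9, called genes of rank 11 to 25 in each direction, and the 3 called members per list and direction with the lowest adjusted p. The ranks counted only genes whose groups did not overlap. Also named were any member of the metallothionein, heat shock and ATF4 lists, the 6 genes with the widest gap between opposite probe sets, and the 6 per direction with the largest change across the filter level. All others were chosen after their values were seen. Alternatives covered the filter (none, or the 60th percentile), probe sets averaged per gene, plain probe sets alone, quantile normalization, centring on array medians, eBayes with trend and robust options, the replicate block, each array left out, and, added after the data were seen, the ACTB 3' to 5' difference as a covariate.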

Additional observations from a re-analysis of the deposited data

Results flagged for a closer look

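Among control probe sets that no comparison of genes uses, the 18S rRNA probe sets read 12.38 ± 0.07 (SD, n = 3) in shGFP and 13.23 ± 0.02 in shBCL9, a difference of 0.85 that stood above the level in the control arrays (two-sided exact permutation p = 0.1, the minimum for groups of 3). The 3' minus 5' difference of ACTB was 0.38 higher in shBCL9, again above every shGFP array (exact permutation p = 0.1, two-sided). Their part in the differences between the groups was not tested, since the ACTB covariate described under the processing alternatives cannot be told apart from the hairpin. The poly-A spike-ins read 7.01 in shGFP (6.85 to 7.14) and 6.35 in shBCL9 (5.87 to 6.75). For the hybridisation spike-ins the means were 11.22 (11.10 to 11.29) and 10.97 (10.91 to 11.03). Neither set overlapped between the groups (two-sided exact permutation p = 0.1 for each, the minimum), and their part was likewise not tested.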

How the results depend on the processing

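The counts given here are those that moved by more than 1.5 times or changed sign; the cause of each change was not tested unless the setting itself removes genes or arrays. The setting with most effect was the ACTB 3' to 5' difference as a covariate, added after the data were seen. The values of this covariate did not overlap between the groups, so the calls lost with it do not measure its part. With it 400 genes and 467 probe sets were called higher and 971 and 1668 lower, BCL9 differed by 0.033, and agreement at 2-fold or more was 82%. The list counts with it were ER chaperones 0 higher and 4 lower, FOXO targets 7 lower, G protein signalling 2 higher and 2 lower, NF-kappaB targets 2 higher and 3 lower, TNF ligands and receptors 0 higher and 1 lower, autophagy 3 lower, cyclins 2 higher and 3 lower, heat shock 1 higher and 2 lower, hypoxia 0 higher and 5 lower, immediate early 1 higher and 9 lower, ATF4 targets 3 higher, interferon 9 higher and 3 lower, metallothioneins 1 higher and 3 lower, NRF2 targets 1 higher and 4 lower and p53 targets 1 higher and 2 lower. Of the 194 named genes and probe sets, 70 lost their call, and KLHL24 at 206551_x_at (-0.095) and STC2 (-0.055) changed sign.

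Plain probe sets only left fewer features, with 2240 probe sets called higher and 3558 lower and list counts of ER chaperones 2 higher, FOXO targets 7 lower, G protein signalling 8 higher, NF-kappaB targets 1 higher, autophagy 1 higher and 8 lower, cyclins 5 higher, hypoxia 8 lower, immediate early 10 lower, ATF4 targets 0 lower, metallothioneins 3 lower, NRF2 targets 2 higher and p53 targets 4 higher; IL16 became 0.066 and PPOX -2.25. With the mean of probe sets the counts were FOXO targets 1 higher, TNF ligands and receptors 2 lower, autophagy 2 higher and heat shock 7 lower, and PPOX was -1.28. The 60th percentile filter gave TNF ligands and receptors 2 higher and heat shock 7 lower, and 117 genes from below to above its level. No filter gave TNF ligands and receptors 4 higher and agreement of 81.5%. Centring the arrays gave ER chaperones 3 higher, G protein signalling 7 higher, TNF ligands and receptors 4 higher and heat shock 7 lower, with ASNS at -0.030, and further quantile normalization FOXO targets 2 higher and autophagy 2 higher. The share of calls that were higher was 44.9%, 52.3% after quantile normalization and 36.6% after centring. The variance trend gave autophagy 1 higher. Whether the replicate numbers pair the arrays was not settled, as there are only 3 per group. Same-numbered deviations correlated weakly, at 0.040 to 0.070, and differently numbered ones at -0.098 to 0.036. With the replicate block 2422 genes were called higher and 2945 lower, and G protein signalling 8 higher.

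Leaving out 1 array at a time gave 1668 to 2384 genes higher and 2255 to 2861 lower, and 2630 to 3900 probe sets higher (2630 without shGFP replicate 2 and 2665 without shBCL9 replicate 1) and 4128 to 5377 lower. BCL9 ranged from -0.21 to -0.094. The list counts ranged over ER chaperones 3 to 5 higher, FOXO targets 0 to 1 higher, G protein signalling 7 to 9 higher, NF-kappaB targets 2 to 4 higher, TNF ligands and receptors 3 to 6 higher and 2 to 3 lower, autophagy 0 to 1 higher, heat shock 4 to 7 higher, hypoxia 2 to 5 higher and p53 targets 2 to 4 lower. Genes from below to above the level numbered 79 to 81 without a shGFP array; without a shBCL9 array such genes cannot pass the filter of 3 arrays, nor those from above to below without a shGFP array. ASNS ranged from -0.021 to 0.014. The spread was widest in the dimmest of the 5 level groups, where the fewest genes were called.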

Other observations

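A further group, chosen after its values were seen, is the Fc receptor-like family, surface and intracellular proteins of the B cell lineage. All 5 tested members were called lower in shBCL9: FCRL2 by 2.37, FCRL5 by 2.04, FCRL3 by 1.56, FCRLA by 1.35 and FCRLB by 0.54. FCRL3 read 6.21, 6.34 and 6.59 in the shGFP arrays and 4.89, 4.88 and 4.70 in the shBCL9 arrays. Its shBCL9 arrays all lay below the filter level, so it passed the filter only through shGFP. FCRLA read 8.40, 8.23 and 8.37 in the shGFP arrays and 7.10, 6.83 and 7.03 in the shBCL9 arrays, and its 3 probe sets all fell by more than 1. Of all genes tested 21.2% were called lower.

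The ID family of inhibitors of basic helix-loop-helix factors, also chosen afterwards, did not move together. ID1 fell by 2.14 ± 0.06 (SE, adjusted p = 1.46e-06), whereas ID3 rose by 0.18 ± 0.05 (SE, adjusted p = 0.0271). ID2 differed by -0.01 and ID4 by 0.02, and neither passed the test in limma. RAP1B, the close relative of RAP1A, fell by 0.17 ± 0.05 (SE, adjusted p = 0.0277) at its only tested probe set. This stands beside the rises of 4.79 and 4.67 at 2 of the 4 probe sets annotated to RAP1A, whose target was not checked.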
